A study of Mus musculus with 2 samples.

Results

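Transcripts of glycolysis and of the response to low oxygen were measured in cells that had been sorted from back skin follicles of mouse pups into 2 populations by reporters of keratin 14 and Sox9. The list held 36 genes. Its members were all probe sets that the platform annotation gives to 1 of these genes alone, and 76 of the 45101 probe sets of the array met this, covering 33 genes. Gpi1, Eno1 and Bnip3l had no such probe set and were not analysed here. All 33 genes had a probe set with a signal above the floor of 57.8, below which signals were not ordered, on both arrays.

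CD-1 pups were used at postnatal day 4, when the first coat of hair grows, and both populations carried both transgenes, K14-RFP and Sox9-EGFP. K14-RFP is a red reporter under the keratin 14 promoter of basal keratinocytes, and Sox9-EGFP reports in green on Sox9, which follicle stem cells need. Cells sorted as early bulge were bright in both colours and stand for the region that becomes the stem cell niche. Cells sorted as non-bulge outer root sheath (ORS) were bright in red without green and stand for the rest of the outer layer of the follicle. The keratinocyte markers Krt14 and Krt5 were bright on both arrays, but fibroblast markers were bright in ORS too, where Col3a1, a dermal collagen, read 16726 against 1378 in early bulge. The ORS array therefore does not stand for keratinocytes alone. Towards early bulge, 6 of 6 upper follicle and 6 of 8 sebaceous gland markers passed 2-fold, against 7.3% of all measured genes. The early bulge array therefore does not stand for the bulge region alone. Neither group was treated, and how many pups gave the cells is not stated in the labels. Each population was hybridised to 1 array, so no difference below has a replicate check, and none has a test or a p-value. In such sorted bulk samples a lower signal can come from fewer cells of a type or from less RNA per cell, and these cannot be told apart.

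Glycolysis splits glucose into pyruvate in the cytosol. Its upper steps, run by hexokinase, phosphofructokinase and aldolase, spend ATP, and its lower steps, from triose phosphate isomerase to pyruvate kinase, return it. Pyruvate then becomes lactate through lactate dehydrogenase or enters mitochondria through the pyruvate dehydrogenase complex. Low oxygen raises many of these enzymes through HIF, a pair of a labile alpha subunit and the stable subunit Arnt. Prolyl hydroxylases of the Egln family mark HIF alpha for destruction when oxygen is present. Hair follicles are known for high lactate production.

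Some enzymes of upper glycolysis and some hypoxia targets had higher signals in early bulge, whereas the hydroxylase Egln3 had a higher signal in ORS. Of the 33 genes, 7 passed 2-fold towards early bulge (Hk1, Pfkl, Pfkp, Aldoa, Bnip3, Ddit4 and Car9), which is 21.2%, against 7.3% of all 13253 measured genes. Only Egln3 passed 2-fold towards ORS, 3.03% of the list against a background of 4.78%, and 25 genes lay within 2-fold. At the softer size of 1.5-fold, 13 genes passed towards early bulge and 4 towards ORS, that is 39.4% and 12.1%, against 17.1% and 12.8% of all measured genes. The count towards ORS was thus near the background at both sizes. The median log2 ratio (early bulge over ORS) of the list was 0.25, and that of all measured genes 0.04.

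**Figure D1:**
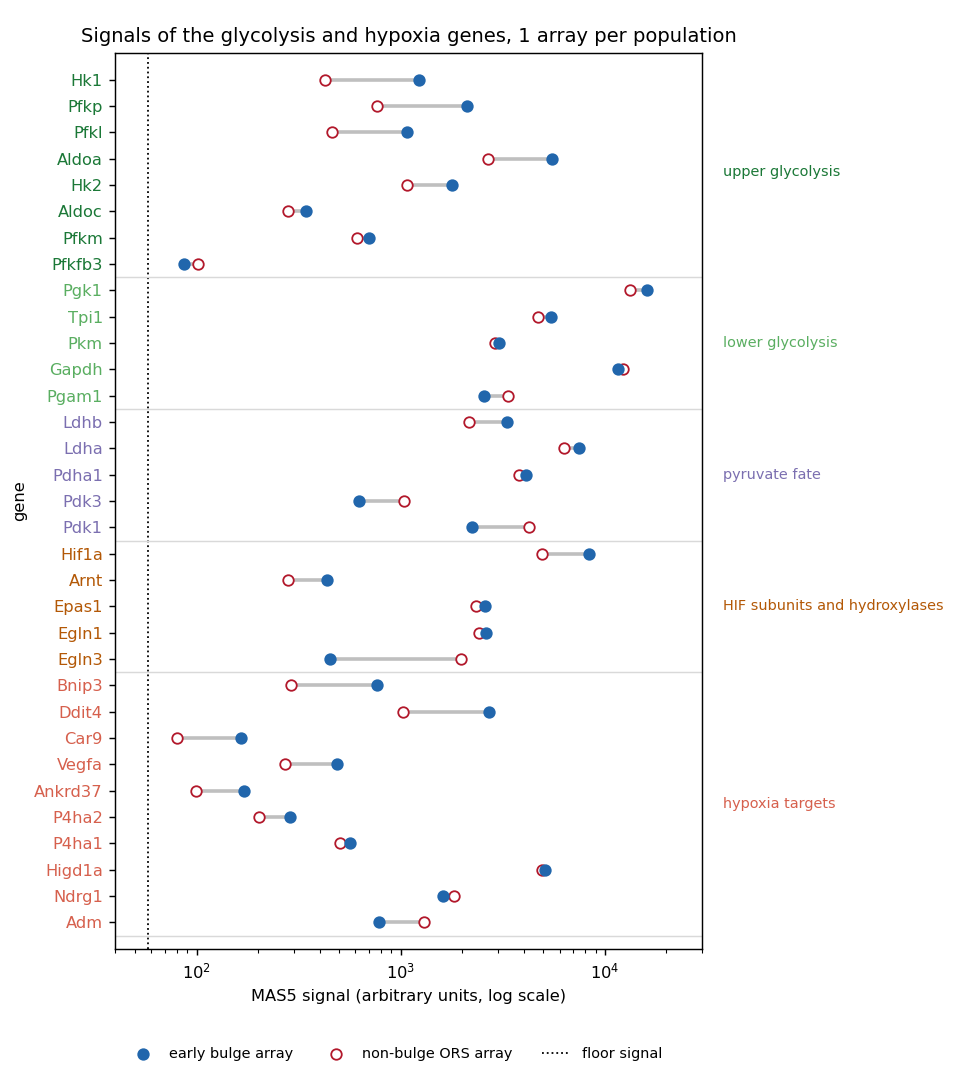
Signal of each of the 33 genes on the early bulge array (filled) and the non-bulge ORS array (open), on a log axis and grouped by role, with the floor of 57.8 as a dotted line. Within upper glycolysis the filled points lie to the right for 7 of 8 genes, by up to 2.91-fold (Hk1), and to the left for Pfkfb3. The points of lower glycolysis are at most 1.31-fold apart (Pgam1), and Egln3 has the widest gap towards ORS.

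The 8 measured genes of upper glycolysis had a median log2 ratio of 0.89. Of them, 4 (50%) passed 2-fold towards early bulge and none towards ORS, against 7.3% and 4.78% of all measured genes. The count of 4 rests on the choice of probe set. It fell to 1 (Pfkl) with the mean over the probe sets of a gene and to 2 (Pfkp and Aldoa) with their median. Hk1 and Pfkp each have a dim set whose ratio is a lower bound, so their means are lower bounds too. Without probe sets whose names carry the suffix _s, _x or _a it fell to 1 (Pfkp) of 5 genes. The brightest sets of Hk1 and Pfkl were left out there for the suffix _a, and those of Aldoa for _x. Hk1, the hexokinase that commits glucose to the cell in most tissues, gave a signal of 1232 in early bulge and 424 in ORS. That was a 2.91-fold ratio, and 3.24% of all measured genes had a larger one. Another Hk1 probe set was dim, with a signal of 66.5 on the early bulge array and below the floor on the other, so its log2 ratio of 0.20 is a lower bound. Hk2, the hexokinase that responds to insulin and to HIF, read 1786 and 1073, a log2 ratio of 0.73 from 1 probe set.

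Phosphofructokinase, the main control point of the pathway, differed by subunit. The platelet subunit Pfkp read 2108 and 768 (2.74-fold), and the liver subunit Pfkl read 1072 and 460 (2.33-fold). The muscle subunit Pfkm read 700 and 608, with a log2 ratio of 0.20. All 3 probe sets of Pfkl were close, at log2 ratios of 0.91 to 1.22. Those of Pfkp ran from 0.29, on a dim set below the floor in ORS, to 1.46. Pfkfb3 makes the sugar phosphate that activates phosphofructokinase. It was dim on both arrays, at 86.4 and 101.4, with log2 ratios of -0.38 and -0.23 on its 2 probe sets.

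Aldoa, the aldolase of most tissues, read 5506 in early bulge and 2671 in ORS (2.06-fold, and past 2-fold under 7 of 9 alternative settings). Of its 5 probe sets, 4 gave log2 ratios between 0.94 and 1.17 and the remaining one 0.27. All 5 carry the platform's suffix for probes that can also bind other transcripts. Aldoc, the brain-type aldolase, read 341 and 281, a log2 ratio of 0.28. Read from the brightest probe set, Hk1, Pfkl, Pfkp and Aldoa were thus past 2-fold and their isozymes Hk2, Pfkm and Aldoc within it.

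Below the aldolase step the 2 arrays differed little. The 5 measured genes of lower glycolysis had log2 ratios from -0.39 to 0.27, with a median of 0.07, and none reached 1.5-fold. Most measured genes (9293 of 13253) did not reach it either. Tpi1, the triose phosphate isomerase, read 5416 and 4715, and its 3 probe sets agreed within 0.20 to 0.27. Pgk1, the first enzyme that makes ATP, was bright at 16041 and 13296, a log2 ratio of 0.27, with other probe sets at 0.12 and -0.28. Pkm, the pyruvate kinase, read 3037 and 2898, a log2 ratio of 0.07. Pgam1, the mutase between them, read 2545 and 3337, a log2 ratio of -0.39. Gapdh, which makes the NADH of the pathway, was covered here by the 3 control probe sets of the array and not by ordinary ones. Its 3′ set read 11619 and 12294, and the log2 ratios of the 3 sets were -0.28 to -0.08. Pgk1, Gapdh, Tpi1 and Aldoa have near-identical pseudogenes, so their ratios are uncertain where probes are shared with such copies.

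Enzymes that decide the fate of pyruvate differed in both directions. Ldha, which makes lactate, read 7463 in early bulge and 6291 in ORS, a log2 ratio of 0.25 from 1 probe set. Ldhb, the heart-type subunit, read 3301 and 2151 (1.53-fold), and its 4 probe sets lay within 0.55 to 0.62. Pdha1, the catalytic subunit of pyruvate dehydrogenase, read 4097 and 3814, a log2 ratio of 0.10. Of the 2 kinases on the list that switch this complex off, both were lower in early bulge, while their relatives Pdk2 and Pdk4, described further on, were higher there. Pdk1, a known HIF target, read 2239 and 4237, a log2 ratio of -0.92, and all 4 of its probe sets had the sign of ORS, from -0.96 to -0.28 with the weakest on a dim set. Pdk3 read 623 and 1043, a log2 ratio of -0.74. Of all measured genes, 5.70% had a ratio further towards ORS than Pdk1. By sign, the measured kinases of this family were thus split by isozyme. Each ratio as read was under 2-fold, that of Pdk2 being a lower bound.

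The HIF subunits were present on both arrays, and a hydroxylase gave the largest difference of the list. Hif1a, the widespread alpha subunit, read 8315 in early bulge and 4946 in ORS, a log2 ratio of 0.75. Its 3 other probe sets gave 0.54, 0.57 and 0.74, the middle value being a lower bound. Epas1, which encodes the second alpha subunit HIF-2 alpha, read 2583 and 2347, a log2 ratio of 0.14. The brightest probe set of Arnt, the partner of both, read 436 and 281 (log2 ratio 0.64). The other 2 measured sets of Arnt had the opposite sign, at -0.50 and -0.75, so no direction can be given for it.

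Egln3, a prolyl hydroxylase that is itself a HIF target, read 451 in early bulge and 1981 in ORS. This was 4.39-fold higher in ORS, and 1.08% of all measured genes had a ratio further in that direction. A dimmer probe set read 54.9, which is below the floor, and 190.9, a ratio of at least 3.30-fold in the same direction. Egln1, the main oxygen-sensing hydroxylase of most cells, read 2608 and 2424, a log2 ratio of 0.11, and its other probe set gave -0.19. The 2 hydroxylases thus did not move together.

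**Figure D2:**
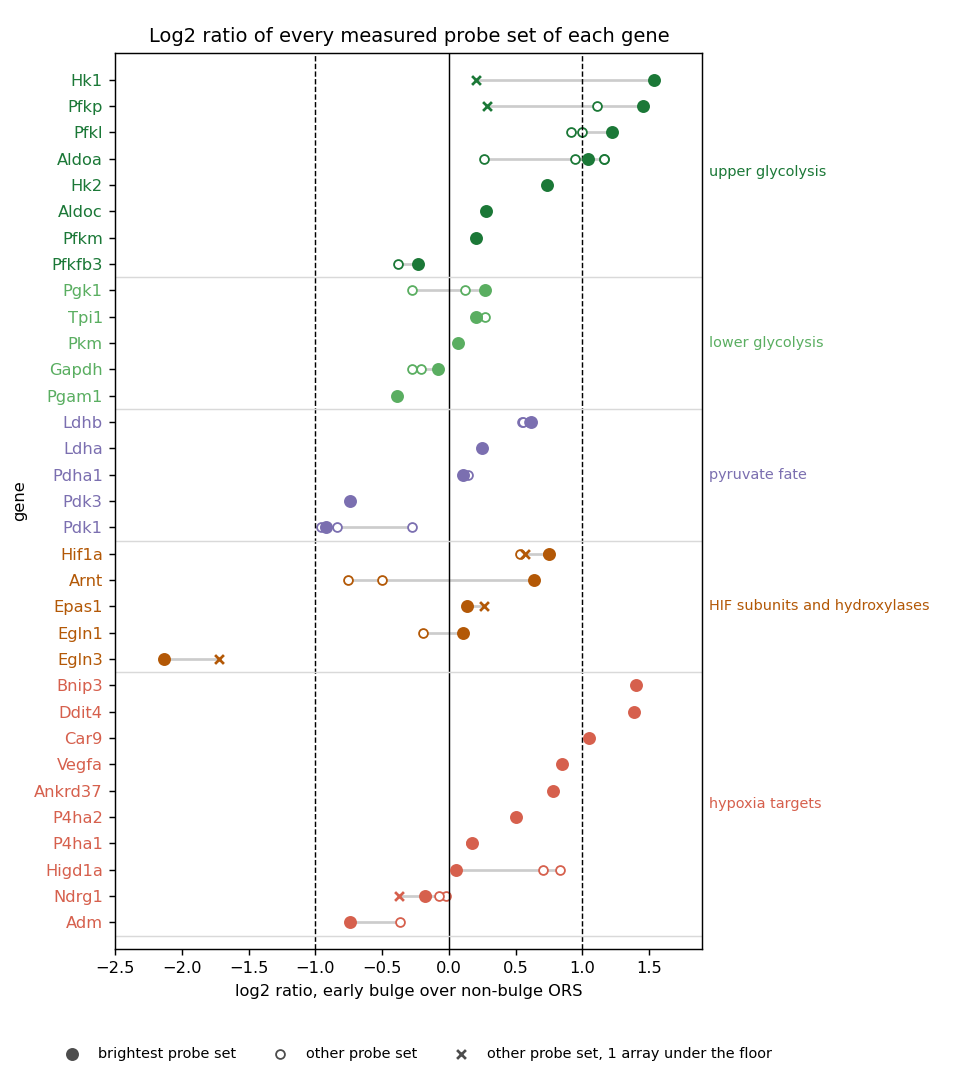
Log2 ratio (early bulge over non-bulge ORS) of each measured probe set of the 33 genes. Filled points are the brightest probe set of a gene, open points its others, crosses those with 1 array under the floor, and dashed lines mark 2-fold. Both Egln3 sets lie left of -1, Ldhb sets lie within 0.55 to 0.62, and those of Arnt fall on both sides of 0.

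Genes grouped here as hypoxia targets were split, mostly towards the early bulge array. Other HIF targets were placed in other groups, among them Egln3 and Pdk1 (higher in ORS) and Hk2 (higher in early bulge). Of the 10 measured genes grouped here, 3 (30%) passed 2-fold and 5 (50%) passed 1.5-fold towards early bulge, and 1 (10%) passed 1.5-fold towards ORS. The shares of all measured genes were 7.3%, 17.1% and 12.8%, so the count towards ORS was near the background. Their median log2 ratio was 0.64. Bnip3, a mitochondrial protein that triggers mitophagy, read 765 in early bulge and 289 in ORS (2.65-fold). Ddit4, also called Redd1, an inhibitor of mTOR signalling that responds to stress and glucocorticoids as well, read 2695 and 1029 (2.62-fold). Car9, the cell surface carbonic anhydrase, was dim at 165 and 79.8 (2.07-fold), and it passed 2-fold under 5 of its 9 alternative settings. Each of these 3 genes had 1 measured probe set, so they lack even a technical second reading.

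Smaller differences in the same direction were seen for Vegfa, the main angiogenic factor, at 487 and 271 (log2 ratio 0.85). Ankrd37, an ankyrin repeat protein, read 171 and 99.6 (0.78). The collagen prolyl hydroxylase subunits P4ha2 and P4ha1 gave log2 ratios of 0.51 (signals 287 and 202) and 0.17 (565 and 502). Higd1a, a mitochondrial respiratory chain protein, was bright at 5095 and 4917 with a log2 ratio of 0.05, while 2 dimmer probe sets gave 0.71 and 0.83. P4ha1 and Higd1a changed sign when both arrays were centred on their median signal, so no direction is given for them. Ndrg1, a stress and differentiation protein, read 1616 and 1830, and its 5 probe sets lay between -0.37 and -0.02. Adm, the vasodilator peptide adrenomedullin, went the other way, at 780 and 1301 (log2 ratio -0.74), with a second probe set at -0.37. Hypoxia targets were therefore found at either end, with Bnip3, Ddit4 and Car9 at one and Egln3, Pdk1 and Adm at the other.

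HIF binds a core of ACGTG or GCGTG, the hypoxia response element. The 250 bases before each RefSeq transcription start (GRCm38.p6) were searched for both cores on both strands, and the palindrome CACGTG, which holds ACGTG on each strand and is also an E-box, was counted once. Of the 33 genes analysed on the arrays, 31 had a promoter in that table (not Epas1 or Ndrg1). A core stood in at least 1 promoter of 30 of these 31 genes, or 96.8%, against 59.7% of 10642 measured genes. The exception was Tpi1. All 7 genes past 2-fold towards early bulge had a core, as did Egln3 and 22 of the 23 genes within 2-fold. With a core in nearly every gene, its presence could not separate the directions. Counted per promoter, 39 of 47 promoters of 33 genes of the list (83.0%, Eno1 and Gpi1 included) held a core, against 53.9% of the promoters of measured genes and 38.6% of all 32851 promoters of the table. Base composition was not matched in these shares, and the list holds HIF targets by choice. A match of letters is a description and shows no binding.

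The upstream sequences of 6 genes are shown because they cover both directions and a nearly equal gene, each with at least 1 core. Capitals mark the cores, or the whole CACGTG where there is one. Bnip3 lies at chr7:138909507-138909756, minus strand, Ddit4 at chr10:59951771-59952020, minus strand, and Car9 at chr4:43506776-43507025, plus strand, and these were higher in early bulge. Egln3 lies at chr12:54203875-54204124, minus strand, and the first of 2 Pdk1 promoters at chr2:71872974-71873223, plus strand, and these were higher in ORS. The first of 2 Ldha promoters, at chr7:46845554-46845803, plus strand, belongs to a gene with a log2 ratio of 0.25.
Bnip3: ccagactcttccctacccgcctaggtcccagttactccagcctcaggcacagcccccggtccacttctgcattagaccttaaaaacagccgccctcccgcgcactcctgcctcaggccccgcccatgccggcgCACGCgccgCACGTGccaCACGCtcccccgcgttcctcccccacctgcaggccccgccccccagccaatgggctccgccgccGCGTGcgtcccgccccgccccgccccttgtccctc
Ddit4: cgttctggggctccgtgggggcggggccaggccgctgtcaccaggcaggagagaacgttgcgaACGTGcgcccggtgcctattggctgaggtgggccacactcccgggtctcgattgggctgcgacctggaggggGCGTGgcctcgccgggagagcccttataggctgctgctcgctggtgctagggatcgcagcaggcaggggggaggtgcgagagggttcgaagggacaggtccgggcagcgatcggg
Car9: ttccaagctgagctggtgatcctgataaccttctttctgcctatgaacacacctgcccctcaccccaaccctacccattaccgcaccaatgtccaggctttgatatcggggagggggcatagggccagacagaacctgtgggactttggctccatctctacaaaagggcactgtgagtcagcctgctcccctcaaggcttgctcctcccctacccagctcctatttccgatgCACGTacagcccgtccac
Egln3: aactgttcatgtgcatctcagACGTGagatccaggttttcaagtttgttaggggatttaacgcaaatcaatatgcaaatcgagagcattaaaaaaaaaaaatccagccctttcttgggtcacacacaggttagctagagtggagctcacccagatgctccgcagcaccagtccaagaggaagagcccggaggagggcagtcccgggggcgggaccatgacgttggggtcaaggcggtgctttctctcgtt
Pdk1: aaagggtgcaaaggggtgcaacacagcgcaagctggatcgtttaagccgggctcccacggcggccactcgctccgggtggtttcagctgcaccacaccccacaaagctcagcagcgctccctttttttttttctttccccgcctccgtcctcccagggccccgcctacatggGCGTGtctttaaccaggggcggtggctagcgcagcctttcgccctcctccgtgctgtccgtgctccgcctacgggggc
Ldha: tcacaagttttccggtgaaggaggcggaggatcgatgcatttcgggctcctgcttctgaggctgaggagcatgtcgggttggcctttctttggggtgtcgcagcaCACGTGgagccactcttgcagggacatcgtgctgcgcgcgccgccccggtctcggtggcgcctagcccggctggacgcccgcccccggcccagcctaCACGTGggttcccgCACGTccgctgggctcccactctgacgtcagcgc

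Bnip3 held 4 cores, the first of them at -117. Ddit4 had 2, from -187 to -183 and from -115 to -111, counted from the start. Car9 had 1 core, from -18 to -14, close to the start. In Egln3 the single core lay far upstream, from -229 to -225, and Pdk1 had 1 from -78 to -74 and none in its second promoter. Ldha had 3, of which 2 were CACGTG. Among these sequences the genes higher in early bulge held 1 to 4 cores and those higher in ORS 1 each, but Pdk3, also higher in ORS, had 4.

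**Figure D3:**
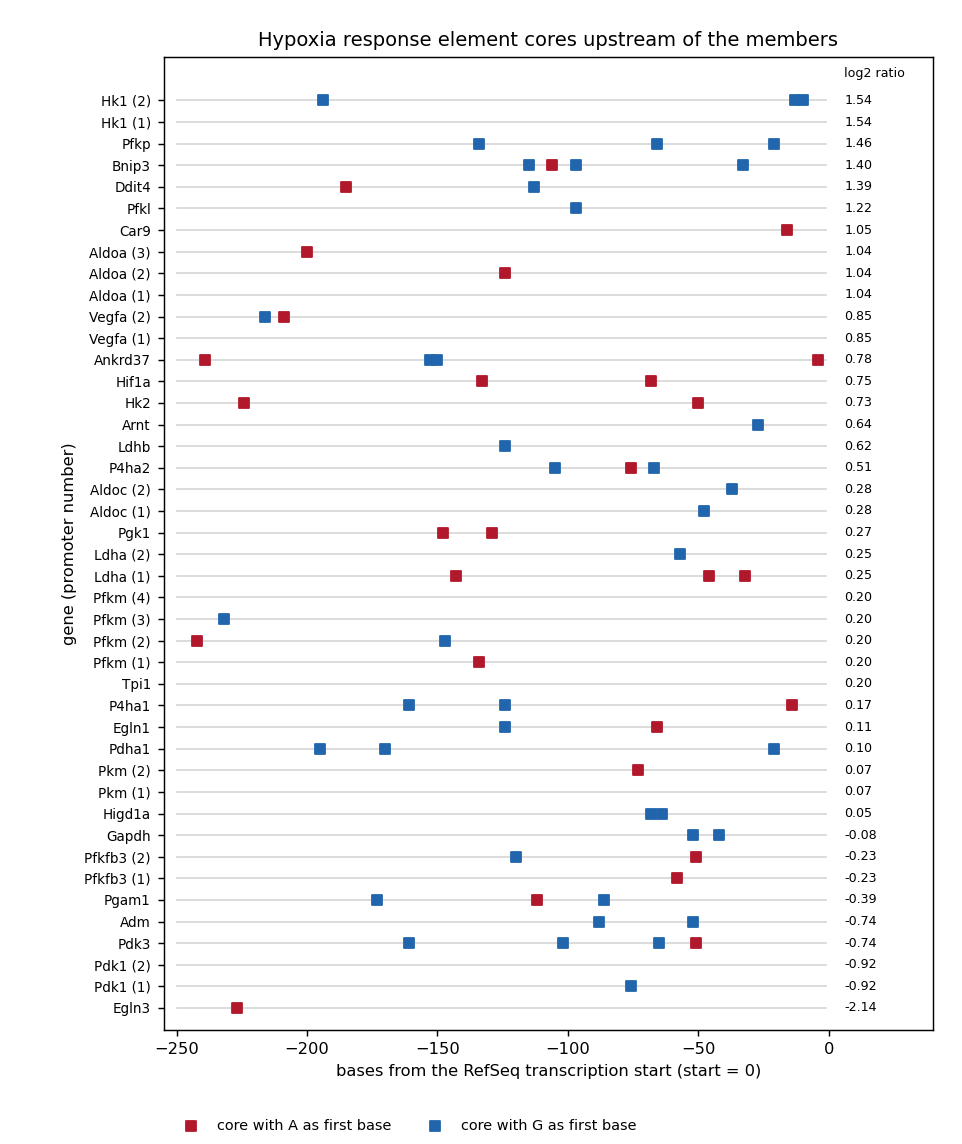
Position of hypoxia response element cores in the 250 bases before each RefSeq start, in bases from the start, for the genes analysed on the arrays, ordered by log2 ratio (printed at right). Red marks cores that begin with A and blue those that begin with G. Cores are found along the whole order, from Hk1 at 1.54 to Egln3 at -2.14.

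Against all measured genes, the groups by role lay at different places. Their medians exceeded that of all measured genes by 0.85 for upper glycolysis and 0.61 for hypoxia targets. The same difference was 0.03 for lower glycolysis, 0.07 for pyruvate fate and 0.10 for HIF subunits and hydroxylases. Signal scaling matters for such small values. Centring both arrays on their median signal lowered the median of all genes from 0.04 to -0.17 and turned the split of genes at least 2-fold apart from 968 higher on early bulge and 634 on ORS to 706 and 1019. Under it 5 members were 2-fold higher on early bulge and 2 on ORS, since Aldoa and Car9 fell below 2-fold (log2 ratio 0.83 each) and Pdk1 passed it (-1.14). Pfkm, Tpi1, Pkm, Pdha1, Epas1, Egln1, P4ha1 and Higd1a changed sign there, so no direction is given for them. Relative to all genes the medians of upper glycolysis and of hypoxia targets were 0.84 and 0.60 there. Centring shifts all genes nearly equally, so it could hardly change these differences. Under quantile normalization they were 0.95 and 0.52, and under loess scaling 0.94 and 0.49.

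**Figure D4:**
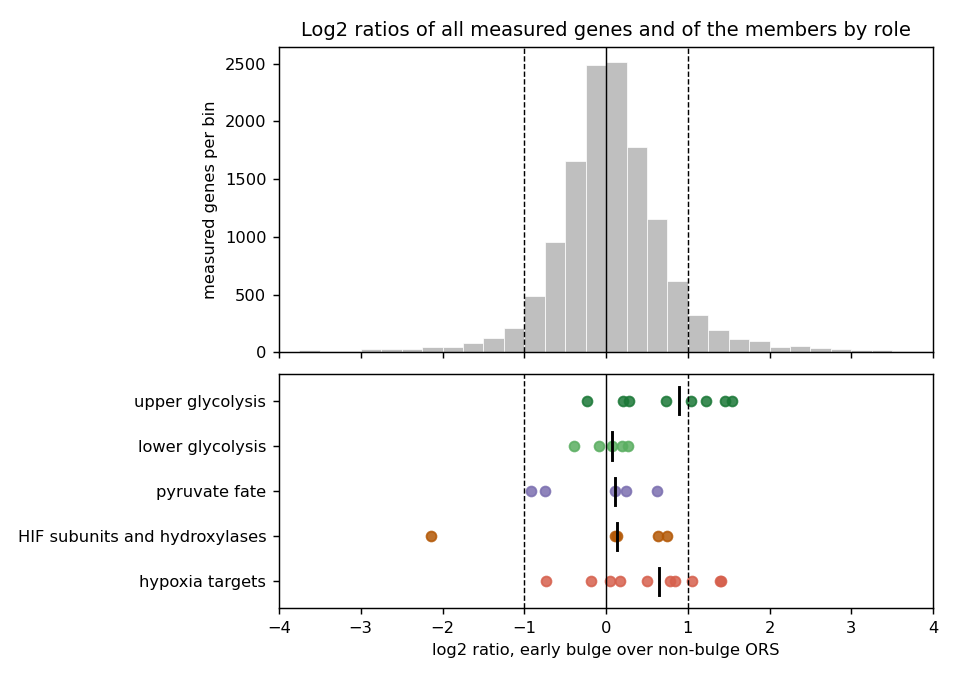
Upper panel, number of measured genes per bin of log2 ratio (early bulge over non-bulge ORS, bins 0.25 wide). Lower panel, the 33 genes by role, with black bars at the medians and dashed lines at 2-fold. Upper glycolysis (median 0.89) and hypoxia targets (0.64) lie to the right of the peak, and the other medians are between 0.07 and 0.14.

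Other genes of the same pathways, taken from a list of 74, gave 61 that were measured, with a median log2 ratio of 0.25. Of these 6 passed 2-fold towards early bulge and 2 towards ORS, or 9.84% and 3.28%, beside the 7.3% and 4.78% of all genes. Transport had the largest difference. Slc16a1, the lactate and pyruvate transporter MCT1, read 4124 in early bulge and 364 in ORS (11.3-fold). Slc2a1, the glucose transporter GLUT1, read 3020 and 1062 (2.84-fold), with 3 probe sets between 1.36 and 1.65 on the log2 scale. Slc2a3, another glucose transporter, was dim at 87.8 and 141 (log2 ratio -0.69), Bsg, the chaperone of MCT1, gave -0.27, and the lactate exporter Slc16a3 was below the floor on both arrays. The glucose transporters were thus split by isoform.

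Among the other 11 measured isozymes and bypass enzymes, the enolase Eno2 was 2.17-fold higher in early bulge at dim signals of 127 and 58.4, and Bpgm, which makes the haemoglobin ligand 2,3-bisphosphoglycerate, gave -0.83. At pyruvate entry, 1 of 9 (11.1%) was 2-fold apart, towards ORS, against 4.78% of all measured genes. Pdp1, the phosphatase that reactivates pyruvate dehydrogenase, read 239 and 490 (2.05-fold higher on ORS), with another probe set at -0.42. Pdk2 and Pdk4, kinases like Pdk1, had log2 ratios of at least 0.91 and of 0.58, opposite in sign to Pdk1 and Pdk3. Each had 1 measured probe set, and Pdk2 was dim, at 109 in early bulge and below the floor in ORS. None of the 6 pentose phosphate genes reached 1.5-fold, Tkt being the furthest at 0.46, but 9293 of all 13253 measured genes did not either. In glycogen metabolism 1 of 7 (14.3%) was 2-fold apart, Pgm2 (2.22-fold higher on early bulge, 509 and 229). Towards early bulge 7.3% of all measured genes were. A single gene in so small a class is not read as a difference of that class.

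Of 7 measured genes of the HIF system, Cited2, which competes with HIF for the coactivators p300 and CBP, read 9775 and 3869 (2.53-fold higher on early bulge), with another probe set at 1.71. Vhl, the ubiquitin ligase subunit that removes HIF alpha, gave -0.63, and the others were between -0.14 and 0.56. Of 17 further hypoxia targets, 15 were within 1.5-fold, as were 9293 of all 13253 measured genes. By sign, 13 of the 17 were higher in early bulge (76.5%, against 53.0% of all measured genes). Their median log2 ratio was 0.29, against 0.04. Plod1, a collagen lysyl hydroxylase, was 2.45-fold higher in early bulge (251 and 102). Tfrc, the transferrin receptor, which is also linked to growth, was 2.11-fold higher in ORS (2894 and 6116), and its 3 probe sets lay from -1.67 to -0.51. Targets outside the list were thus mostly within 1.5-fold, as were most measured genes.

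Markers of other cells moved with the populations, and their part in the values above was not tested. Sox9 was 6.01-fold higher in early bulge, and Krt14 was bright on both (14706 and 6609). Towards early bulge, 6 of 6 upper follicle, 6 of 8 sebaceous gland, 6 of 8 epidermal differentiation and 3 of 7 basal keratinocyte markers passed 2-fold in that direction. Towards ORS, 8 of 9 dermal fibroblast, 4 of 6 pericyte and smooth muscle, 4 of 6 hair matrix, 2 of 5 dermal papilla, 1 of 5 melanocyte and 1 of 2 endothelial markers did. Neither of 2 measured immune markers was 2-fold apart. The summed signals of the sebaceous gland markers were 25400 and 7269, and those of the fibroblast markers 5923 and 53918. The defining sebocyte markers Pparg and Cidea did not reach the floor in ORS, and the fibroblast receptor Pdgfra did not reach it in early bulge. Of the immune markers Cd3e, Ptprc, Itgam and Cd207 were below the floor on both arrays, as were both matched erythroid and 3 endothelial markers (Pecam1, Cdh5 and Emcn). None of 4 proliferation markers was 2-fold apart (median -0.47). Genes induced by cell dissociation were bright on both arrays, with Fosb and Atf3 the 2 of 8 that passed 2-fold towards early bulge, as Ddit4 did.

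The precision of a ratio can be read only from probe sets of one gene. The brightest and another probe set of the same gene differed in log2 ratio with an SD of 0.48 over 9107 pairs. The SD fell from 0.56 where the dimmer set was under 300 to 0.31 where it was at 1000 or more. Among the 33 genes, 20 had several measured probe sets, and in 17 of these all had one sign, while Arnt, Pgk1 and Egln1 were mixed. The 3′ over 5′ signal ratio of Gapdh was 3.79 in early bulge and 3.47 in ORS, and that of actin 3.66 and 3.24.

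**Figure D5:**
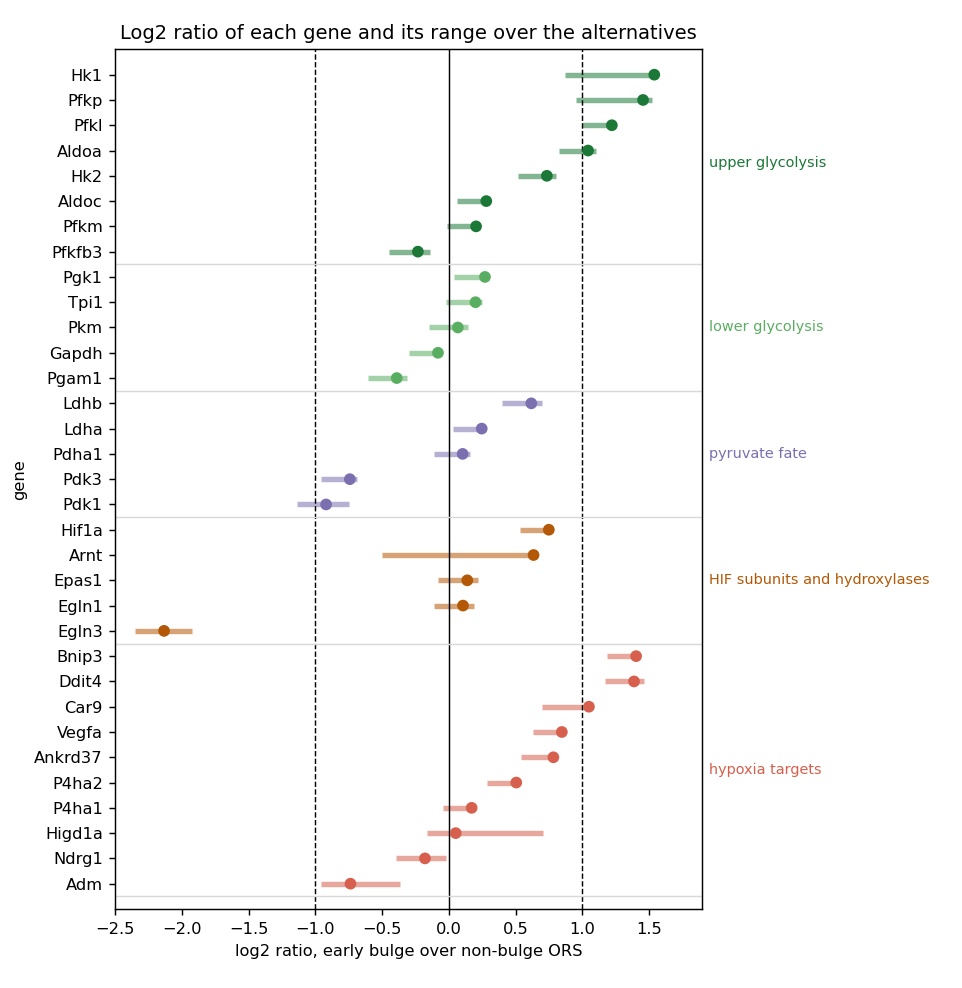
Log2 ratio of each of the 33 genes as reported (point) and its range over the other scalings, floors and probe set choices (bar), with dashed lines at 2-fold. Egln3 remains between -2.35 and -1.93, Bnip3 between 1.19 and 1.40, and Arnt crosses 0.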

How the data were processed

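RNA of each population was labelled as biotinylated cRNA, per the labels' protocols. The file holds 1 intensity per probe set on a linear scale, which the authors computed using MAS5 and Expression Console of Affymetrix, as the submitters' processing notes state. Their versions and a genome build are not given in the sources used here. The 2% trimmed mean was 500.0 on both arrays. The members and all gene lists were chosen with earlier results of these data known.

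Each gene was read from the probe set that was brightest by mean log2 signal, named by the platform annotation. Control probe sets were used only where a gene had no other, as for Gapdh. Signals under the 40th percentile of all non-control signals (57.8) were set to it, and a gene was measured if 1 array reached it. Ratios with 1 array at the floor are lower bounds. Named genes were all members, each related gene at least 2-fold apart, the furthest measured gene of each related class, and marker genes beside a result; Slc2a3, Bsg, Slc16a3, Bpgm, Pdk2, Pdk4 and Vhl were named after their values were seen. Promoter sequences are from RefSeq (GRCm38.p6). Alternatives were median centring, quantile normalization, loess (span 0.4), other floors, a pseudocount equal to the floor, and other probe set choices. The procedure was tested on simulated data. Python 3.11.15, pandas 2.3.3 and statsmodels 0.14.6 were used. Precision is limited by the number of arrays.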

Additional observations from a re-analysis of the deposited data

How the results depend on the processing

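With 1 array per population, no alternative carries a replicate check. No paired analysis was possible because each group has 1 sample. Of 319 values of single members over 10 alternatives, 312 moved by less than the SD between probe sets of one gene (0.48), 7 moved by more and none at least 2-fold apart reversed, while 12 smaller values changed sign. Many of these values had no room to move, so the count is no measure of stability. Other floors left each remaining value unchanged, and median centring shifted all members equally, by less than that SD. The mean or median over probe sets could not change the 13 genes with 1 measured probe set, Bnip3 and Ddit4 among them. That SD is between single probe sets, so it is no yardstick for medians of several genes. Median centring took the median of the list from 0.25 to 0.03 and that of lower glycolysis from 0.07 to -0.15. With the floor at the 60th percentile, that of the hypoxia genes (HIF system members and targets) went from 0.51 to 0.17. The median of upper glycolysis, 0.89, lay between 0.67 and 1.04. The 7 members at least 2-fold higher on early bulge became 4 with the mean over probe sets, where Hk1, Pfkp and Aldoa had log2 ratios of 0.87, 0.95 and 0.92. Those of Hk1 and Pfkp are lower bounds, since each includes a dim set below the floor in ORS. The 7 members also became 4 without probe sets that carry the suffix _s, _x or _a. There 25 members were left (Hk1 and Aldoa had no other set) and Pfkl stood at 0.999, just short of 2-fold. The 1 member at least 2-fold higher on ORS became 2 under median centring. For related genes the main counts were 6 and 2. Median centring gave 4 on the ORS side, a pseudocount gave 3 and 1, and the mean or the median over probe sets gave 1 on the ORS side. Bnip3 and Ddit4 stayed past 2-fold towards early bulge under all 10 alternatives, and Egln3 towards ORS under all 10. Dim signals limit Pfkfb3, Car9 and Ankrd37.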
